A study of Mus musculus with 4 samples.

Results

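Neuropeptide Y is a small secreted peptide encoded by Npy, and the values here are the Npy transcripts of single cells from mouse tail intervertebral discs with and without a needle injury. Npy is 1 gene of the 32285 in the deposited tables (ENSMUSG00000029819), and its UMIs (counts of distinct transcript molecules) were read in every barcode with at least 250 detected genes, called a cell below. The gene was selected on its UMI levels by cell type and by injury group, so those values are a description and carry no test.

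Neuropeptide Y is best known as a co-transmitter of sympathetic nerves, where it is released with noradrenaline and constricts vessels, and as a regulator of feeding in the hypothalamus. Its precursor is cut by prohormone convertases, trimmed by a carboxypeptidase and amidated at its end before release. It acts through a family of G protein-coupled Y receptors that lower cAMP, some of which are also known in bone-forming cells, and the released peptide is cleaved by surface peptidases.

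Tail discs of wildtype female C57BL/6 mice, 12 weeks old, were compared 7 days after puncture. In each of 2 rounds there was 1 library of uninjured control discs and 1 library of discs pierced from both sides with a 30G needle. No other treatment is named for either group, and the discs of each group were pooled, with 6 mice and 30 discs per group. The control discs were taken lower on the same tails (CC12/13 to CC16/17) than the injured ones (CC5/6 to CC9/10), so tail level and injury cannot be told apart in any value below.

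The gene lies on chromosome 6 of the mm10 build, chr6:49822710-49829507 on the plus strand. Its transcript Npy-201 has 4 exons in GENCODE M21, of which exon 1 (chr6:49822710-49822801) is untranslated and exons 2 to 4 hold the coding part. The coding sequence is printed because all other values here are counts of this one message. The capitals mark the 36 codons of the mature peptide. The codons before them encode the signal peptide, and the 9 bases that follow, ggcaagaga, encode the site at which the precursor is cut and amidated.
Npy coding sequence: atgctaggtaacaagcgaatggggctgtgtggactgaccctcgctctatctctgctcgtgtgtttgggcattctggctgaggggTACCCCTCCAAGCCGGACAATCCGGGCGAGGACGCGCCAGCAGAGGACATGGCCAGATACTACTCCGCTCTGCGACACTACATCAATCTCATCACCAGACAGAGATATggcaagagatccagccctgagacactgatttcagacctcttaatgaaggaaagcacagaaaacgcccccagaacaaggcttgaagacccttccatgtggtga

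In round 1 the control library held 378 cells and the injured library 778, and in round 2 they held 856 and 1834. Control cells were shallower, with a median of 1061.5 UMIs in round 1 and 836 in round 2, against 7033.5 and 4635 in injured cells. The control matrix of round 1 listed 444 barcodes, each of which also has UMIs in the injured matrix of round 1. For 225 of these barcodes the injured library held few UMIs, at most 0.0690 times the control count. The other 219 had similar or more UMIs in the injured library, and 159 of the 378 control cells were of that kind. They carried 12 of the 33 Npy UMIs of control round 1, so values for round 1 are also given without them.

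Npy was higher in the injured than in the control library of both rounds. Over all cells it made up 31.0 of every 1000000 UMIs (31.0 CPM) in control round 1 and 28.2 in control round 2, from 33 and 61 UMIs. In the injured libraries it made up 198 CPM in round 1 and 109 CPM in round 2, from 1335 and 1148 UMIs. The control libraries lay close together, the injured libraries differed from each other, and the groups did not overlap. Group means were 29.6 ± 1.97 CPM in control and 154 ± 63.4 CPM in injured discs (SD, n = 2). The ratio of injured to control was 6.40 in round 1 (95% interval 4.53 to 9.34) and 3.85 in round 2 (2.98 to 5.07), where intervals cover counting error only. Without the 159 shared barcodes the ratio of round 1 was 8.94 (5.82 to 14.5). In the model fitted to all genes (edgeR), the change was 2.43 ± 0.417 on the log2 scale (SE). Of 11990 genes tested over all cells, 16.4% had both injured libraries above both control libraries, and 0.592% had a log2 change at or above that of Npy. In a pool of cells, more cells that express a gene and more RNA per cell cannot be told apart from the summed level, so the level was next split by cell type.

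**Figure D1:**
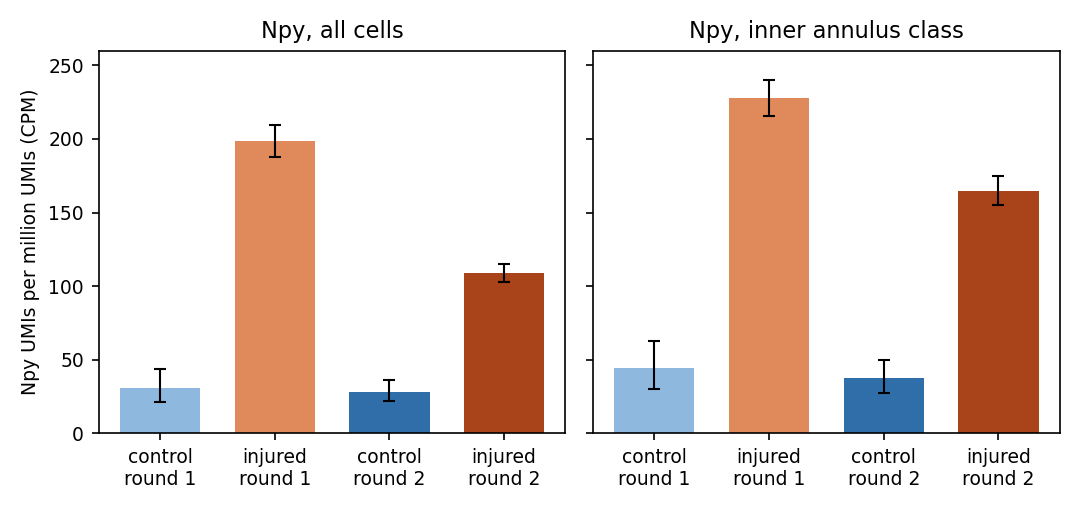
Npy level in CPM (UMIs per 1000000 UMIs, linear axis from 0) in each library, over all cells (left) and over cells of the inner annulus class (right). Bars are single libraries and error bars are exact 95% counting intervals. In both panels the injured bars (198 and 109 CPM, 228 and 165 CPM) stand above the control bars.

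Most of the Npy message was in cartilage-like disc cells. Cells were grouped into 19 clusters without Npy among the clustering genes, and clusters were named from marker genes. Clusters left unnamed count in the all-cell levels, among them clusters with pancreas acinar and with B cell markers. Pancreas acinar markers summed to 1149 and 850 CPM in control rounds 1 and 2 and to 16.2 and 1.99 CPM in injured rounds 1 and 2. B or plasma cell markers summed to 1097 and 635 CPM in control and to 98.4 and 2.94 CPM in injured rounds 1 and 2. The class named inner annulus or cartilage-like comprised 6 clusters. Acan (the core protein of aggrecan), Col2a1 (cartilage collagen) and Sox9 (a cartilage transcription factor) together marked 4 of them. Another, led by Sfrp5 and Grem1, was marked by Sox9, Comp, Cnmd and Cytl1, and the last, led by M1ap and Fmod, by Col2a1, Comp and Prg4 among others, without Sox9 or Acan. It held 203 control and 487 injured cells in round 1, and 255 and 1058 in round 2. Cells of the cartilaginous end plate share these markers, so the class may include them. It carried 2490 of the 2577 Npy UMIs in cells, or 96.6%, and 70.4% of all UMIs. The pooled share is set mainly by the injured libraries. By library the share was 97.0% and 97.8% in control and injured round 1 and 96.2% in injured round 2, but 78.7% in control round 2 (48 of 61 UMIs). The class held 67.9% and 85.2% of all UMIs in control and injured round 1, and 59.5% and 63.4% in round 2. Outside the class the Npy level was 2.92 and 29.2 CPM in control and injured round 1, and 14.9 and 11.4 CPM in round 2.

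Within this class control levels were 44.3 CPM in round 1 and 37.3 CPM in round 2, and injured levels were 228 and 165 CPM. The ratio was 5.14 in round 1 (3.62 to 7.55) and 4.42 in round 2 (3.31 to 6.03). Without the shared barcodes the ratio of round 1 was 7.43 (4.79 to 12.2). The log2 change was 2.38 ± 0.395 (SE). The 2 rounds therefore gave ratios whose counting intervals overlap, while the levels of the injured libraries did not: 228 CPM (216 to 240) against 165 CPM (155 to 175). In this class, 14.2% of the 10683 genes tested had both injured libraries above both control libraries, and 0.459% had a log2 change at or above that of Npy.

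The share of cells with at least 1 Npy UMI moved the same way. In the inner annulus class it was 7.39% in control round 1 and 4.31% in control round 2, against 31.4% in injured round 1 and 19.3% in injured round 2. These shares depend on depth, so each cell was also thinned to the same number of UMIs, leaving out shallower cells. At 1000 UMIs the shares were 3.31% of 121 cells and 1.34% of 224 cells in control rounds 1 and 2, and 1.85% of 108 cells in control round 1 without the shared barcodes. They were 11.4% of 481 cells and 7.80% of 1025 cells in injured rounds 1 and 2. Thinning left out 82 control and 6 injured cells of this class in round 1, and 31 and 33 in round 2. At 2000 UMIs the shares were 1.94% and 2.37% in control and 16.6% and 12.2% in injured cells. At 500 UMIs the interval of control round 1 (2.39% to 8.87%) overlapped those of both injured libraries. For comparison, the endothelial, mural and macrophage classes together, which can hold free RNA of other cells, gave 3.95% of 76 cells in injured round 1 and 4.505% of 111 cells in injured round 2 at 1000 UMIs. At 2000 UMIs they gave 4.41% of 68 cells (0.919% to 12.4%) in injured round 1, beside 16.6% of inner annulus cells (13.3% to 20.3%). In injured round 2 they gave 10.6% of 85 cells (4.96% to 19.2%), beside 12.2% of inner annulus cells (10.2% to 14.5%). These intervals cover counting over cells of 1 library, and the shares are a description. The outer annulus class of that library gave 1.12% of 356 cells. Median depth before thinning was 9285 and 5337 UMIs in inner annulus cells of the injured libraries, and 3540 and 3024 UMIs in those other classes.

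**Figure D2:**
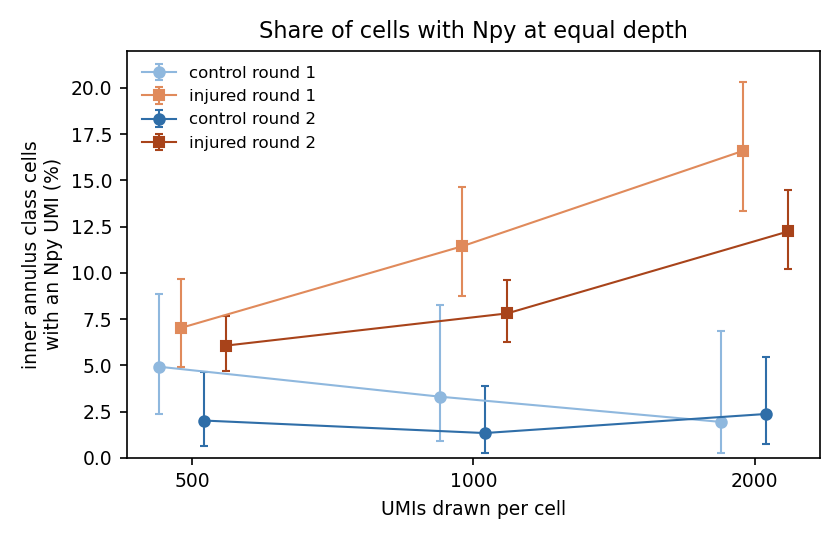
Share of inner annulus class cells (%) with an Npy UMI after each cell was thinned to 500, 1000 or 2000 UMIs. Points are single libraries and error bars exact 95% binomial intervals. Both injured libraries lie above both control libraries at each depth, with intervals that separate at 2000 UMIs.

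Few cells carried most of the message. The highest single cell held 91 Npy UMIs in injured round 1 and 64 in injured round 2, against 6 and 13 in control rounds 1 and 2. There were 38 cells with 10 or more Npy UMIs in the first injured library and 27 in the second, against 0 and 2 in the controls. At the other end, 54 of 166 holders in injured round 1 and 97 of 237 in injured round 2 had a single Npy UMI. The top 10% of holders carried 48.2% of the Npy UMIs in injured round 1 (17 cells) and 51.3% in injured round 2 (24 cells). The distribution was thus wide in both injured libraries, with single UMIs and over 60 UMIs in cells of the same class. At an equal 2000 UMIs per cell, the variance of Npy over inner annulus cells was 5.70 and 5.46 times its mean in injured rounds 1 and 2. Among genes expressed at a useful level, 47 of 2945 genes with a mean of at least 0.1 UMIs in round 1, and 49 of 2613 in round 2, had a ratio at or above that of Npy, and the median gene had 1.08 and 1.07.

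**Figure D3:**
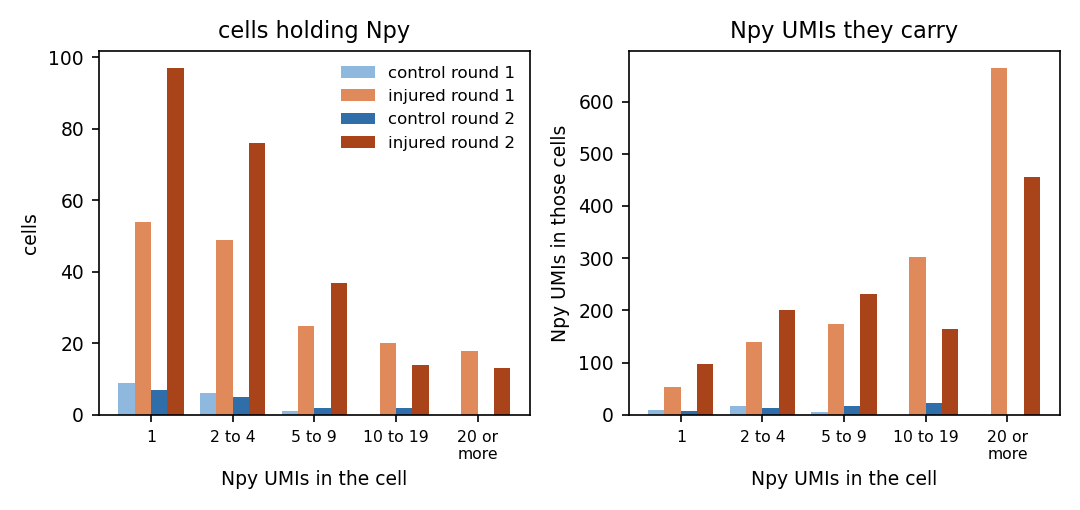
Cells that hold Npy, by the number of Npy UMIs in the cell (left, number of cells), and the Npy UMIs that those cells carry (right), for each library. Cells with 20 or more UMIs are few (18 in injured round 1 and 13 in injured round 2) and carry 664 and 455 UMIs.

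Cells rich in Npy carried some markers of cartilage-like cells at a high level and others at a low one. Acan was detected in 100% and 96.3% of the cells with 10 or more Npy UMIs in injured rounds 1 and 2, and Sox9 in 94.7% and 96.3%. Hapln1, the link protein that fixes aggrecan to hyaluronan, was detected in 97.4% and 88.9%. These were the 3 of the 13 inner annulus markers with a higher CPM in such cells than in cells without an Npy UMI in both injured libraries. There were 8 with a lower CPM in both, among them Col2a1 (3420 against 5382 CPM and 2641 against 5279 CPM) and Comp, a matrix protein that binds collagen (277 against 1228 CPM and 781 against 1434 CPM). Of the 13 outer annulus or fibroblast-like markers, 0 were higher and 10 were lower in both libraries. That list still had 11170 UMIs in the 67 cells of all libraries with 10 or more Npy UMIs, in 66 of them. Dcn (decorin) was detected in 86.8% and 74.1% and Col1a2 in 81.6% and 70.4%, while Aspn (asporin) was detected in 2.6% and 3.7% and Postn (periostin) in 0% of the Npy-rich cells in both libraries. The cells without an Npy UMI were not limited to the inner annulus class, while all the Npy-rich cells of both injured libraries belonged to it. The marker differences therefore include differences between classes. All markers in this paragraph were among the genes that defined the classes, so the values describe the cells and test nothing.

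Within the inner annulus class, the level of Npy differed between clusters. The cluster led by Il11 and Spink6 (Il11 is a cytokine of the interleukin-6 family) had 421 CPM in injured round 1 (817 UMIs, 173 cells) and 501 CPM in injured round 2 (269 UMIs, 71 cells). Npy is itself among the 10 genes that mark this cluster, although it was left out of the clustering. It held 24 of the 38 cells with 10 or more Npy UMIs in injured round 1 and 8 of 27 in injured round 2. In control round 1 the cluster had 10 Npy UMIs in 63 cells, all of them in barcodes shared with the injured library, and in control round 2 it had 3 UMIs in 7 cells.

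The cluster led by the matrix metalloproteinase genes Mmp12 and Mmp3 had 127 CPM in injured round 1 and 175 CPM in injured round 2, against 31.9 CPM in control round 1. This pair of round 1 libraries had enough cells in this cluster for a comparison (215 and 83), and the ratio was 3.98 (2.45 to 6.90). The cluster led by Gdf5, a growth factor of the bone morphogenetic protein family, had 204 CPM in injured round 2 (384 UMIs, 352 cells) but 25.4 CPM in injured round 1 (3 UMIs, 24 cells), against 158 CPM in control round 1 (1 UMI, 8 cells). Its ratio in round 2 was 2.99 (1.501 to 6.97) over 15 control cells. The cluster led by M1ap and Fmod (fibromodulin, which binds collagen) had 134 and 104 CPM in injured rounds 1 and 2, and 4 and 2 UMIs in 20 and 17 control cells. The 4 inner clusters named so far thus all held Npy in at least 1 injured library above 100 CPM.

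In the other 2 inner clusters the control level of round 2 was above the injured one. The cluster led by the acute-phase genes Saa3 and Saa1 had 106 CPM in injured round 2 (161 UMIs, 233 cells) and 373 CPM in control round 2, where 12 UMIs lay in 2 of 4 cells. In round 1 it had 18 UMIs in 1 of 4 injured cells (681 CPM) and 0 in 4 control cells. The cluster led by Sfrp5 and Grem1, secreted inhibitors of WNT and of bone morphogenetic proteins, held 209 of the 255 inner annulus cells of control round 2. Its Npy level was 24.1 CPM there (23 UMIs) and 0 UMIs in 61 cells of injured round 2, which allows a share of cells with an Npy UMI of up to 4.92%. In round 2, different clusters thus held most of the class in each group, Sfrp5 cells in the control and Gdf5, Fmod and Saa3 cells in the injured library. In round 1 the Mmp3 and Il11 clusters held most of the class in both libraries, although only 2 of the 63 control cells of the Il11 cluster lay outside the shared barcodes. Without those barcodes the Mmp3 cluster held 79 of the 110 control cells. The part of this makeup in the higher class level was not tested. Control UMIs within single clusters were few, from 0 to 23, so levels by cluster are given as a description.

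**Figure D4:**
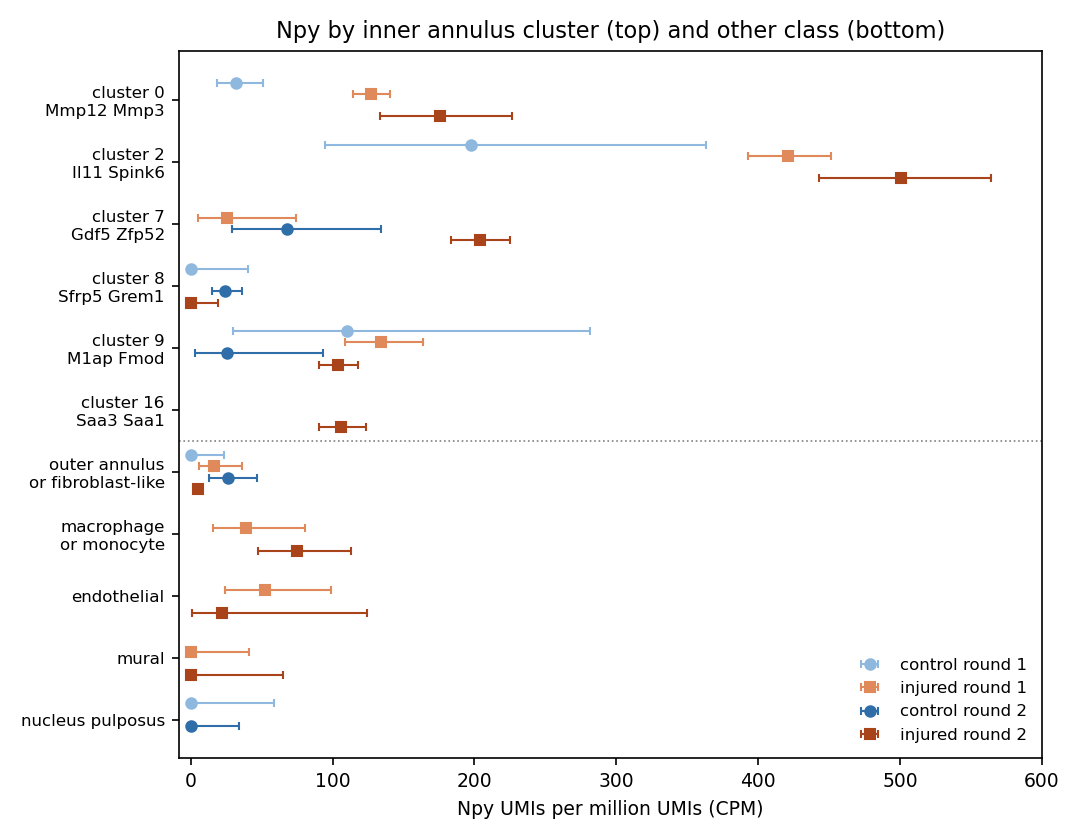
Npy level in CPM (linear axis) in the 6 clusters of the inner annulus class (above the dotted line) and in other classes (below it), for each library with at least 10 cells. Points are summed counts of 1 library and error bars exact 95% counting intervals. The Il11 cluster of both injured libraries (421 and 501 CPM) lies to the right, and the mural and nucleus pulposus classes lie near 0. The outer annulus class lies at 26.0 CPM in control round 2, and at 16.5 and 4.98 CPM in injured rounds 1 and 2.

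Outside the inner annulus class Npy was mostly sparse, with macrophages or monocytes of injured round 2 as an exception. In the outer annulus or fibroblast-like class, led by Myoc and Aspn cells, there were 0 UMIs in 31 cells of control round 1 and 6 UMIs in 32 cells of injured round 1. In round 2 the direction was the opposite of that in inner cells: 26.0 CPM in control (11 UMIs, 55 cells) and 4.98 CPM in injured discs (16 UMIs, 385 cells), a ratio of 0.191 (0.0834 to 0.456). Of the 11 control UMIs, 9 lay in 1 cell. The injured outer class of round 2 consisted mainly of other clusters (Aspn and dividing cells) than the control one (Myoc cells), and in Myoc cells alone the levels were 27.8 CPM in both libraries.

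Nucleus pulposus cells, the notochord-derived cells of the disc core, had 0 Npy UMIs in 29 and 71 cells of control rounds 1 and 2, which allows a share of cells with an Npy UMI of up to 10.3% and 4.23%. Mural cells had 0 UMIs in 16 and 19 cells of injured rounds 1 and 2. Endothelial cells had 9 UMIs in 2 of 36 cells of injured round 1 and 1 UMI in injured round 2. Macrophages or monocytes had 7 UMIs in 39 cells of injured round 1. In injured round 2 they had 23 UMIs, held by 16 of 93 cells, and the level was 75.1 CPM (47.6 to 113). That level was above the 4.98 CPM (2.85 to 8.09) of the outer annulus class in the same library. In barcodes with under 250 genes, which were not counted as cells, Npy was at 30.2 CPM and 20.4 CPM in the injured libraries of rounds 1 and 2, and at 4.27 CPM in control round 2.

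Nerve and platelet precursor genes were examined beside Npy because sympathetic nerves and, in rodents, megakaryocytes are known sources of the peptide. Of the 18 sympathetic neuron and granule genes, Th and Dbh, which encode the enzymes of noradrenaline synthesis, had 0 UMIs in the cells of all 4 libraries. The list summed to 16.9 and 16.2 CPM in control rounds 1 and 2 and to 21.9 and 43.6 CPM in injured rounds 1 and 2. Its most abundant members were Uchl1 (217 UMIs), Stmn2 (208) and Tubb3 (93), a ubiquitin hydrolase and a pair of tubulin-related genes of neurons. The 67 cells with 10 or more Npy UMIs held 5 UMIs of the whole list, in 3 cells, and 0 of Stmn2. Of the Stmn2 UMIs, 160 were in the outer annulus class and 39 in endothelial cells, classes that held few of the Npy UMIs. Overlap in cells with fewer Npy UMIs was not examined. Of this list 5 genes could be tested over all cells, and edgeR called 0 at an adjusted p under 0.05, where 0.117% of all 11990 genes were called. An unadjusted p under 0.05 was reached by 3 (7.91% of all genes), and DESeq2 called 0, where it called 181 of all 11990 genes. With round as a block, which pairs the libraries of a round, Stmn2 and Tubb3 were higher in injured discs (2.73% of all genes), and Stmn2 alone without the shared barcodes (0.927% of all genes). Uchl1 was the only member tested within inner annulus cells. It had 3 and 1 UMIs in control and 40 and 73 in injured rounds 1 and 2, and was higher with the block (adjusted p of 0.0237, where 4.46% of all genes were higher) but not called without it (0.589), and it was also called with the block without the shared barcodes (3.27% of all genes). Of the megakaryocyte genes, Gp9, a platelet glycoprotein subunit, was at 0, the list summed to 2.82 CPM in control and 3.12 in injured discs of round 1, and 1.85 and 9.47 in round 2, and the 67 cells held 0 UMIs of it. Itga2b, an integrin subunit of platelets, gave most of that sum (114 UMIs), was the only member tested and was not called (adjusted p of 0.781 by edgeR, and 0.245 with the block).

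Of the 15 other members of the neuropeptide Y system, 3 had no UMI in any cell, and Cpe and Pcsk2 were lower in injured discs with round as a block, with and without the shared barcodes. Over all cells, 6 of the 15 members besides Npy had enough counts to be tested. None was called by edgeR at an adjusted p under 0.05, where 0.117% of all genes were called (14 of 11990). An unadjusted p under 0.05 was reached by 3 of the 6 (7.91% of all genes). DESeq2 called Cpe and Pcsk2, where it called 181 of all 11990 genes (139 of them lower). With round as a block, which pairs control and injured discs of the same round, 6.14% of all genes were called (3.41% lower and 2.73% higher), and of the 6 members 3 were lower and 1 was higher. In the inner annulus class, 3 of the 5 tested members were lower with the block, where 8.74% of all genes were called and 4.29% were lower. Over all cells the members' median log2 change was -1.13, against -0.01 for all genes, and 4 of the 6 had both injured libraries below both control libraries, against 20.6% of all genes.

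Among ligands, Pyy (peptide YY) had 2 UMIs, both in 1 cell, and Ppy (pancreatic polypeptide) had 0. Receptor transcripts were near the limit of detection in all 4 libraries. Npy1r, which mediates vessel constriction, had 14 UMIs, 12 of them in mural cells and 0 in the inner annulus class. Npy2r had 3 UMIs, Npy5r had 1, and Npy4r and Npy6r had 0. At this depth the absence of a receptor from a cell type cannot be shown.

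Of the processing enzymes, Cpe (carboxypeptidase E, which trims the ends left by the convertases) was at 717 and 706 CPM in control rounds 1 and 2 and at 245 and 190 CPM in injured rounds 1 and 2. The groups did not overlap, and the injured level was lower in both rounds, opposite to Npy. The change over all cells was -1.65 ± 0.353 on the log2 scale (SE), with an adjusted p of 0.196 by edgeR and 0.0029 with round as a block. In the inner annulus class, which held 94.2% of Cpe UMIs, the change was -1.81 ± 0.388, with an adjusted p of 0.181, and 6.4e-06 with the block. Pcsk2, the prohormone convertase 2 gene, was at 14.1 and 13.9 CPM in control and at 1.34 and 2.65 CPM in injured rounds 1 and 2. Its change was -2.69 ± 0.582, with an adjusted p of 0.208, and 0.0060 with the block. Pcsk1, the other convertase, had 9 UMIs, all in inner annulus cells. Pam, the amidating enzyme, was at 829 CPM in control and 565 CPM in injured discs of round 1, and at 368 and 331 CPM in round 2. It was lower in the injured library of each round, while the rounds differed more than the groups (-0.38 ± 0.496, adjusted p of 0.921).

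The message for Cpe and Pam was present in most cells rich in Npy, while that of the convertases Pcsk1 and Pcsk2 was hardly detected there. Cpe was detected in 81.6% and 70.4% of the cells with 10 or more Npy UMIs in injured rounds 1 and 2, and Pam in 81.6% and 74.1%. Cells with 0 Npy UMIs are shallower and were not limited to the inner annulus class. In them Cpe was detected in 39.1% and 30.8% and Pam in 60.8% and 59.8%. Pcsk2 was detected in 0% and 3.7%, and Pcsk1 in 0%, of the cells with 10 or more Npy UMIs. On the CPM scale, Cpe was at 278 and 222 in the Npy-rich cells and at 252 and 186 in cells without Npy.

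Among peptidases, Mme (neprilysin) was at 7.52 and 18.97 CPM in control and at 2.38 and 4.36 CPM in injured rounds 1 and 2, a change of -1.92 ± 0.624 (adjusted p of 0.484, and 0.0234 with the block). Anpep (aminopeptidase N) was at 1.88 and 10.2 CPM in control and at 2.38 and 42.2 CPM in injured rounds 1 and 2, so the groups overlapped. Its change was 1.86 ± 1.24 (adjusted p of 0.818, and 0.0137 with the block), and 413 of its 486 UMIs were in the outer annulus class. Dpp4, which shortens neuropeptide Y and shifts its receptor preference, had 21 UMIs, 15 of them in control round 2. Fap, its close relative, was at 14.1 CPM in control and 6.09 CPM in injured discs of round 1, and at 18.0 and 13.7 CPM in round 2 (adjusted p of 0.865). Without the shared round 1 barcodes, 2 of the 6 tested members (Pcsk2 and Cpe) were lower and 0 higher with the block, where 1.11% and 0.927% of the 11871 genes tested were.

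**Figure D5:**
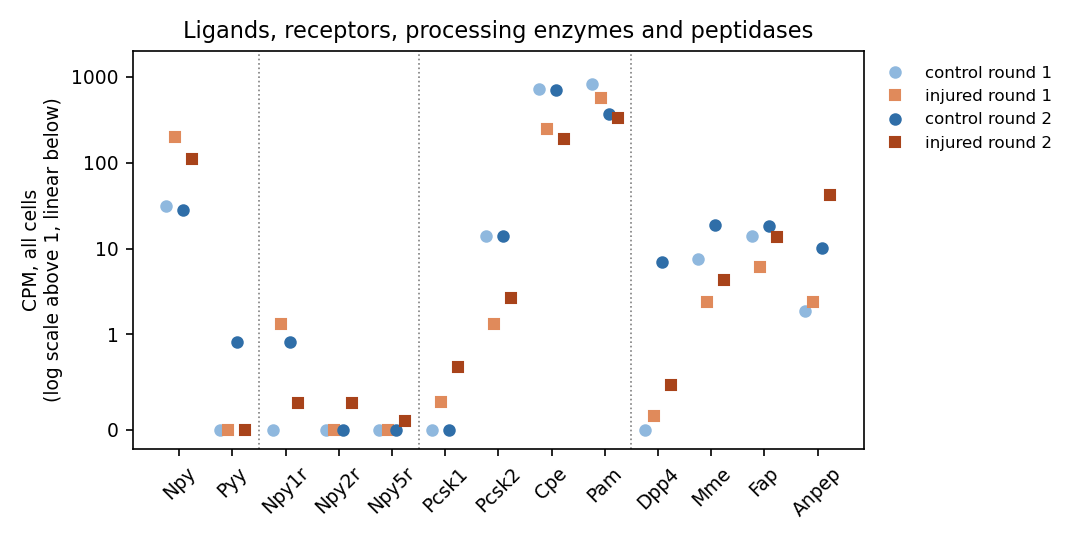
Level in CPM over all cells (logarithmic axis above 1, linear below) of Npy and of the 12 other members of its system with a UMI, from ligands, receptors and processing enzymes to peptidases (separated by dotted lines). Each point is 1 library. Npy is higher, and Pcsk2, Cpe, Mme and Fap are lower, in both injured libraries than in both control libraries.

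Other secreted peptides were compared in the same way. Of 22 other neuropeptide precursor genes, 7 could be tested over all cells and edgeR called 0 of them (0.117% of all genes). An unadjusted p under 0.05 was reached by 3 (7.91% of all genes), and 0 were called by DESeq2 (181 of all 11990 genes). Edn1, the precursor of the vessel-constricting peptide endothelin 1, was at 0.940 and 0.925 CPM in control (1 and 2 UMIs) and at 3.57 and 4.92 CPM in injured rounds 1 and 2. Control counts this low carry no order, and the change of 2.24 ± 0.824 on the log2 scale was not called (adjusted p of 0.533, and 0.109 with the block). Pomc, the precursor of melanocortins and endorphin, was at 2.82 and 2.78 CPM in control and at 5.65 and 3.98 CPM in injured rounds 1 and 2 (adjusted p of 0.853). With the block 1 was lower (3.41% of all genes), and 0 without the shared barcodes. This was Cck, the cholecystokinin gene (14.1 and 8.33 CPM in control, 3.27 and 1.70 CPM in injured rounds 1 and 2). Penk, the enkephalin precursor, had the most UMIs (1053) and lay at 42.3 CPM in control and 97.7 CPM in injured discs of round 1, and at 27.3 and 27.7 CPM in round 2. In round 2 it was therefore level between the groups over all cells. In the inner annulus class Penk was at 54.0 and 113 CPM in round 1 and at 11.7 and 35.98 CPM in round 2, higher in the injured library of each round, with overlapping groups and an adjusted p of 0.724, and 0.00027 with the block. It was detected in 18.4% and 25.9% of the cells with 10 or more Npy UMIs in injured rounds 1 and 2, and in 7.4% and 4.1% of cells with 0. The cells with 0 are shallower and were not limited to the inner annulus class, and the part of depth and class was not tested. Adm (adrenomedullin, 170 UMIs) and Nmb (neuromedin B, 116 UMIs) followed in abundance.

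The 14 cAMP response genes were read because Y receptors lower cAMP. All 14 had a negative log2 change over all cells, where 49% of all genes had a positive one, and none was called by edgeR. An unadjusted p under 0.05 was reached by 4, where 7.91% of all genes had one. DESeq2 called Sik1 and Gem, where it called 181 of all 11990 genes (139 of them lower). With round as a block 8 of the 14 were lower, where 3.41% of all genes were. The median log2 change was -1.01. Junb was at 834 and 1703 CPM in control rounds 1 and 2 and at 361 and 773 CPM in injured rounds 1 and 2. Fos was at 475 and 1470 CPM in control and at 103 and 613 CPM in injured rounds 1 and 2. Dusp1 was at 364 and 1041 CPM in control and at 206 and 473 CPM in injured rounds 1 and 2. Each was lower in the injured library within a round, and higher in round 2 than in round 1 within a group. These are immediate early genes that also respond to cell dissociation, and whether their levels bear on neuropeptide Y was not tested. Without the shared barcodes, 2 of the 14 (Sik1 and Gem) were lower with the block over all cells, where 1.11% of all genes were. Among inner annulus cells edgeR called 0 of the 14 (0.14% of all genes), with 4 at an unadjusted p under 0.05 (7.55% of all genes). DESeq2 called 1 of the 14 there, where it called 100 of all 10683 genes (64 of them lower). With the block 7 were lower there (4.29% of all genes), and 7 also without the shared barcodes (2.78% of all genes).

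Genes that varied with Npy between cells were ranked within the inner annulus class. Only the injured libraries had at least 20 cells with Npy, so the correlation of log-scaled counts was taken over 487 cells of injured round 1 and 1058 cells of injured round 2, for 7634 genes found in at least 5% of cells. All correlations were weak, and cells of a library share their depth range. The gene most like Npy was Mgp (matrix Gla protein, an inhibitor of mineralization), with r of 0.21 and 0.20. It was followed by Capns1 (a calpain subunit), Mt1 (metallothionein 1), Inhba (activin A) and Il11, whose r was 0.17 and 0.19. Btg1, Cdkn1a, Bmp6, Tnfrsf11b, Eif1, H2afz, Hspa4l, Prdx5, Camk2n2 and Atp6v0b completed the 15. With each cell thinned to 1000 UMIs, which also lowered the number of genes ranked from 7634 to 2240, 5 of the 15 stayed among the 15 most alike. Hspa4l and Camk2n2 were not ranked then, and the other 13 had a positive r in both libraries. That r was 0.18 and 0.15 for Mgp and 0.07 and 0.14 for Il11. For H2afz it fell to 0.0097 and 0.019, from 0.18 and 0.14 before thinning.

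The values behind 3 of these genes are given for cells with 5 or more Npy UMIs and cells with 0. Mgp was at 1927 against 998 CPM in injured round 1 (62 and 334 cells) and at 5538 against 1513 CPM in injured round 2 (64 and 854 cells). Il11 was at 894 against 543 CPM and at 710 against 270 CPM. Inhba was at 6284 against 5075 CPM and at 2175 against 1206 CPM. The cells with 5 or more Npy UMIs were also deeper, with a median of 12391 against 8428.5 UMIs in injured round 1 and 7512 against 5096 in injured round 2, and the part of depth in these differences was not tested. At the other end of the ranking lay Comp, Cp, Ptgis, Col1a2 and Col11a2. Comp (cartilage oligomeric matrix protein) had r of -0.17 and -0.13, and was at 276 against 1232 CPM in injured round 1 and at 1125 against 1623 CPM in injured round 2. Cells of the Il11 cluster are counted in all of these values, and that cluster is marked by Il11, Inhba, Tnfrsf11b and Npy.

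The levels of these genes in control cells are given as a description with no test, because the 15 were found through their values in the injured libraries. Il11 was at 133 and 121 CPM in inner annulus cells of control rounds 1 and 2 and at 605 and 303 CPM in those of injured rounds 1 and 2. Mgp was at 346 and 725 CPM in control and at 1204 and 1868 CPM in injured rounds 1 and 2. Both lay higher in each injured than in either control library, as 14.2% of all genes did. Of the 15 genes, 9 did so and 0 lay lower in each injured than in either control library. Inhba overlapped between the groups, at 2337 and 960 CPM in control and 5215 and 1339 CPM in injured rounds 1 and 2.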

How the data were processed

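The deposited values are UMI counts per gene and barcode, whole numbers that the authors produced with Cell Ranger against mm10, per the submitters' processing notes. Per the file headers, version 6.0.0 made the control library of round 1 and version 4 the others. The gene annotation is not given in the sources used here. Cells were frozen, thawed and sorted as viable with the dye DAPI, per the series text, and captured with 10x Genomics version 3 3' chemistry, per the labels' protocols. Position and coding sequence of Npy were read from GENCODE M21 (GRCm38, the same assembly as mm10).

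A barcode with 250 or more detected genes counted as a cell. Counts were scaled to 10000 per cell and log-transformed, and the 2000 most variable genes without Npy, 30 principal components, 20 neighbours and the Leiden method at resolution 1 gave the clusters (scanpy 1.11.5). Clusters were named for the class with most markers held by at least 25% of its cells at 1.2 times the mean of other cells, and at least 3 of them. Conditions added after the clusters were seen left some clusters unnamed. These were clusters whose top 10 genes held at least 1 marker of another class, and as many as of their own class or more. They were also clusters with over 50% of their control barcodes of round 1 matched by similar UMIs in the injured library. A further condition left shallow clusters unnamed if none of their class markers was among the top 10 genes. It left out a cluster of 151 cells marked by Col1a1, Col1a2 and Col3a1, at 0.155 times the median UMIs of its libraries. Rebuilt names can differ from those of the authors. Doublets were kept, and an alternative left out the 20 cells that Scrublet marked. The edgeR fits of the inner annulus class without these cells, or without the shared barcodes, used clusters rebuilt on the cells left.

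Counts were summed per library and tested with the quasi-likelihood test of edgeR 4.0.16 (R 4.3.3; default filter, TMM, Benjamini-Hochberg, called at an adjusted p under 0.05), with DESeq2 1.42.0 as an alternative. No p was computed for Npy. CPM are counts per 1000000, level intervals are exact Poisson, shares have exact Clopper-Pearson 95% intervals, and all cover counting error only. With 2 libraries per group, whose independence beyond the round is not stated, p-values measure the spread between these libraries. Control and injured discs came from the same animals, per the labels, and the rounds share numbers, so the rounds pair the libraries. The deviations of same-numbered libraries correlated at 0.51 over all cells and 0.53 in the inner annulus class, and blocked values stand beside each count. The edgeR fit and the likeness ranking were tested on simulated data.

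Npy, the gene lists and the markers were chosen with earlier results of these data known. The rule for named genes took Npy, all members of its system, the 15 genes most and 5 least like Npy, and the 3 members with the most UMIs of each other list. Sik1, Gem, Edn1, Pomc, the annulus markers and the members called by DESeq2 were named after their values were seen. 1 gene of the platelet precursor list is not reported here.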

Additional observations from a re-analysis of the deposited data

Results flagged for a closer look

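Npy was found in barcodes with under 250 detected genes, which enter no comparison, at a higher level in the injured libraries than in control round 2. It was at 30.2 CPM in injured round 1 (67 UMIs) and at 20.4 CPM in injured round 2 (131 UMIs). In control round 2 it was at 4.27 CPM (33 UMIs), and in control round 1, whose matrix holds 66 such barcodes, 0 UMIs of 50017 were Npy, too few UMIs to place that library. In injured round 1 the level was 68.2 CPM in barcodes with 1 to 10 UMIs and 10.9 CPM in those with 11 to 100. The cause was not tested.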

How the results depend on the processing

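The Npy change over all cells stayed between 1.99 and 2.79 on the log2 scale under all alternatives run. In the inner annulus class it stayed between 2.23 and 2.85. It was 2.85 with cells under 10% mitochondrial UMIs, 2.75 without the shared round 1 barcodes, and 2.65 with those barcodes left out of the classes as first built, an alternative chosen after seeing the data. With round as replicate block it was 2.35 over all cells and 2.37 in the class. Counts of called genes moved more. Over all cells, 14 genes became 378 with no filter on low counts, 181 with DESeq2, 736 with round as replicate block, 3 without the shared barcodes, and 0 with at least 500 detected genes (902 at an unadjusted p under 0.05), and 126 to 273 when 1 library was left out. In the inner annulus class, 15 became 100 with DESeq2, 934 with the block, and 40 to 195 when 1 library was left out. They became 0 with no filter, at resolution 0.5 and at resolution 2 (1022, 796 and 819 at an unadjusted p under 0.05). They also became 0 without shared barcodes and without Scrublet calls (884 and 820), each with the class rebuilt on the cells left. With the shared barcodes left out of the classes as first built, 14 genes were called. A lone library was assumed to vary like the other group. The injured minus control share of cells with Npy, 17.1 percentage points in round 1 and 11.1 in round 2, became 7.76 and 4.40 at 1000 UMIs per cell, 2.91 and 3.09 at 500, and 12.8 and 6.53 at 2000. Of the 15 genes most like Npy, 5 were kept after thinning, 9 with Spearman correlation and 9 without the shared barcodes. Leaving out those barcodes removed control cells only, but the class was rebuilt. It then held 427 and 761 cells of injured rounds 1 and 2 in place of 487 and 1058. The causes were not tested, apart from thinning, which lowers depth and the number of genes ranked by construction. Control cells are few and shallow, so levels under about 3 UMIs per library carry no order.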
